A study of Mus musculus with 6 samples.

Results

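AP-1 subunits and other immediate-early genes were followed in embryonic mammary buds that received Eda signal for 4 h. The 8 genes were chosen by name and not by a threshold on a measured value, though with earlier results of these data known, and are 8 of the 25949 probe sets on the arrays. They are the AP-1 subunit genes Fos (ENSMUSG00000021250_at), Fosb (ENSMUSG00000003545_at), Fosl1 (ENSMUSG00000024912_at), Jun (ENSMUSG00000052684_at) and Junb (ENSMUSG00000052837_at). Beside them stand Atf3 (ENSMUSG00000026628_at), Egr1 (ENSMUSG00000038418_at) and Ier3 (ENSMUSG00000003541_at). All 8 had a value on every array.

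The material was E13.5 mammary buds of Eda-/- mice, the Tabby line, so control and treated buds alike lacked the Eda ligand. The profiling asked which genes respond soon after Eda is given back. Buds from one side of each embryo went into control medium and those from the other side were exposed to Fc-Eda-A1, a recombinant form of the ligand, at 250 ng/mL for 4 h. Each condition had 3 biological replicates, each a pool of buds from several embryos and measured on 1 Affymetrix Mouse Exon 1.0 ST array, so the 6 arrays form 3 control and Fc-Eda pairs. Most but not all of the mesenchyme around the bud epithelium had been removed by hand. Marker genes of bud epithelium, mesenchyme and other cell types were not analysed here. The reference used here paired no identifier with a gene name, and the 8 genes were taken by identifier. In such bulk samples, fewer cells of a type and less RNA per cell cannot be told apart.

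Immediate-early genes are transcribed within minutes of a stimulus, without new protein synthesis, and their transcripts are mostly short lived. Fos and Jun family proteins pair through leucine zippers to form AP-1, a transcription factor induced by growth factors, cytokines, serum and stress. Because wounding, dissection and transfer to culture also induce these genes, their level in explanted tissue is a familiar readout of handling. Eda is a Tnf family ligand whose receptor Edar activates NF-κB, and several immediate-early genes, Ier3 among them, are known NF-κB targets in other cells.

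The sequence just upstream of the start site was available for 6 of the 8 genes, all but Fosl1 and Egr1, as 250 bases of RefSeq sequence on GRCm38.p6. Motifs were looked for on both strands: the NF-κB site, the serum response element core known as the CArG box, and the sites of AP-1 (TGANTCA) and CREB and ATF proteins (CRE TGACGTCA and the CRE core TGACG, which overlaps it). Letters of an NF-κB site were found in the windows of Ier3, Fos and Fosb and not in those of Jun, Junb and Atf3, and 3.9% of all 32851 promoter windows of this length held one. The windows of Ier3, Fos and Fosb are shown because they share this motif and their values after Fc-Eda are set side by side below. The NF-κB site was searched as GGGRNWYYCC, where R is A or G, Y is C or T, W is A or T and N is any base. Capitals mark the NF-κB site letters and the CRE core, found on either strand.
Ier3, chr17:35821463-35821712, plus strand: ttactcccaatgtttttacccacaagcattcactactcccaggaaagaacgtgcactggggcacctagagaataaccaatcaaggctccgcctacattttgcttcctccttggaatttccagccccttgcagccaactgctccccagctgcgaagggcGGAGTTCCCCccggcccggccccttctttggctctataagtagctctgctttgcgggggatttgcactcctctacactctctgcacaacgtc
Fos, chr12:85473640-85473889, plus strand: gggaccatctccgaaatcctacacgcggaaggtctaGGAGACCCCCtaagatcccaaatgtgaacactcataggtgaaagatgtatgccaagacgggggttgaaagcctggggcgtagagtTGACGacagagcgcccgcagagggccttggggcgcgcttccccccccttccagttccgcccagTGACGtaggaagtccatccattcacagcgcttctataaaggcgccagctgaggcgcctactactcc
Fosb, chr7:19310046-19310295, minus strand: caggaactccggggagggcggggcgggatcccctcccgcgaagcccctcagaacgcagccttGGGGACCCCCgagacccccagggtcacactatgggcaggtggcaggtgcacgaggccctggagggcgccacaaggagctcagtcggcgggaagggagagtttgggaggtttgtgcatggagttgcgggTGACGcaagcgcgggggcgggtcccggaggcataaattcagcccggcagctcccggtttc
The NF-κB letters GGAGTTCCCC of Ier3 lay 92 to 83 bases before the start site, GGAGACCCCC of Fos 214 to 205 bases and GGGGACCCCC of Fosb 188 to 179 bases before it. Each of these stretches fits the searched pattern as its reverse complement. The CRE core was found in Fos, Fosb, Junb and, as its reverse complement CGTCA 7 to 3 bases before the start, in Atf3, and 17.8% of all windows held it. No window of the 6 held the letters of a CArG box, of TGANTCA or of the full CRE, which occurred in 1.47%, 6.75% and 1.55% of all windows. A match of letters is a description of the sequence and says nothing about binding.

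In control buds the 8 genes spanned a wide range of signal. Percentiles are means over the 3 control arrays of the place among all probe sets of each array, with the range in brackets. Jun lay at percentile 89.6 (88.5 to 90.9), and Egr1 at percentile 87.4 (85.7 to 90.5). Jun lay above Egr1 on each of the 3 control arrays, although their ranges overlap. Atf3 followed at percentile 78.1 (76.9 to 80.4), below both on every array. Fosl1 at 63.6 (61.6 to 65.6), Junb at 62 (57.3 to 67.3), Fos at 58 (57.4 to 59) and Fosb at 56.5 (53.5 to 60.2) formed a middle group in which the order of neighbours changed between arrays. Ier3 was the lowest of the 8, at percentile 46.7 (43.8 to 48.3), near the middle of the array, where the median probe set had a mean control log2 value of 4.87. Percentiles depend on the probes of each gene as well as on its transcript, so no ratio between genes is given, and no detection call was used.

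After Fc-Eda, none of the 8 genes passed the limma test for paired arrays at a Storey q of 0.05, and neither did any other probe set (0 of 25949, 0%). At an unadjusted p under 0.05 in limma, Junb, Egr1 and Ier3 were higher (3 of 8, against 2.73% of all probe sets) and no member was lower (3.33% of all probe sets). Fosl1, Junb, Atf3, Egr1 and Ier3 were higher with Fc-Eda in all 3 pairs, 5 of 8 against 13.2% of all probe sets, and no member was lower in all 3 pairs, against 15.3%. The median difference of the 8 genes was 0.27 on the log2 scale and that of all probe sets was -0.024. Without replicate 2 the median of the 8 was 0.12. Of the 8, Ier3 alone had all Fc-Eda arrays above all control arrays, a pattern found in 3.98% of all probe sets. With 3 pairs, the exact sign-flip permutation test (two-sided) cannot go below 0.25, so it can call no single gene.

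**Figure D1:**
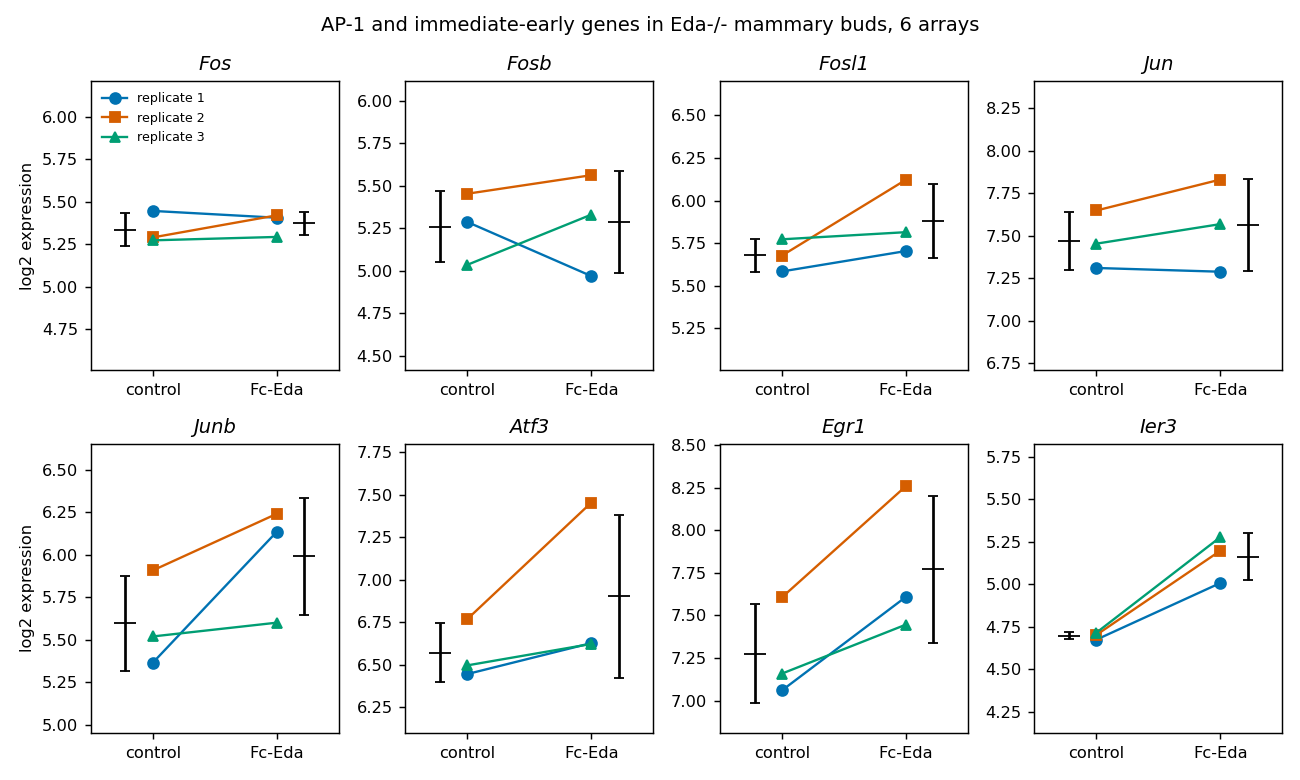
Log2 expression of the 8 genes on each of the 6 arrays, with control and Fc-Eda joined by a line within each replicate number and mean ± SD (n = 3) beside each group. Every panel spans the same number of log2 units, and Ier3 is the gene whose control and Fc-Eda arrays do not overlap.

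Fos, the founding AP-1 subunit, had log2 values of 5.45, 5.29 and 5.27 in control replicates 1, 2 and 3 and 5.41, 5.42 and 5.29 with Fc-Eda. The groups overlapped fully and all 6 arrays lay within a narrow band. The mean was 5.34 ± 0.095 (SD, n = 3) in control and 5.37 ± 0.070 with Fc-Eda, a difference of 0.037 with a 95% interval of -0.18 to 0.25 (limma, q = 0.805). The pair differences were -0.040, 0.13 and 0.020, and the negative value of pair 1 turned to 0.037, 0.15 and 0.037 under quantile normalization, centring of each array on its median and cyclic loess.

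Fosb, another Fos family subunit, read 5.29, 5.45 and 5.04 in control and 4.97, 5.56 and 5.33 with Fc-Eda. The lowest and the highest array were both Fc-Eda arrays, so the treated group enclosed the control group. Its difference of 0.029 (95% interval -0.32 to 0.38, limma q = 0.833) was the mean of pair differences of -0.32, 0.11 and 0.30. Pair 1 thus ran opposite to pairs 2 and 3, as it also did under the 3 other normalizations (-0.19, -0.13 and -0.23).

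Fosl1 encodes Fra-1, a Fos relative that lacks a strong activation domain and is itself an AP-1 target. Its log2 values were 5.58, 5.68 and 5.77 in control and 5.70, 6.12 and 5.81 with Fc-Eda. The Fc-Eda array of replicate 2 stood above the other 5, and the Fc-Eda array of replicate 1 lay inside the control range. The pair differences were 0.12, 0.45 and 0.042, with a mean of 0.20 (1.15-fold, 95% interval -0.077 to 0.48, limma q = 0.751). Without replicate 2 the difference was 0.081.

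Jun, the main partner of Fos in AP-1, read 7.31, 7.65 and 7.45 in control and 7.29, 7.83 and 7.57 with Fc-Eda. Replicate 2 was highest and replicate 1 lowest in both conditions, and the distance between replicates was greater than that between conditions. The mean difference was 0.092 (1.07-fold, 95% interval -0.13 to 0.31, limma q = 0.757). Pair 1 gave -0.022 in the deposited values, -0.14 after quantile normalization or cyclic loess and 0.16 after centring, so its direction depends on the scaling.

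Junb, a Jun relative that often restrains Jun, read 5.36, 5.91 and 5.52 in control and 6.13, 6.24 and 5.60 with Fc-Eda. It was higher with Fc-Eda in each pair, but by 0.77, 0.33 and 0.081, and the Fc-Eda array of replicate 3 lay below the control array of replicate 2. The mean pair difference was 0.39 ± 0.35 (SD of 3 pair differences), 1.31-fold, with a 95% interval of 0.019 to 0.77 (limma q = 0.691). Without replicate 1 the difference was 0.21, so this pair carried much of it.

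Atf3, a stress-inducible zipper protein that can pair with Jun proteins, read 6.45, 6.77 and 6.50 in control and 6.63, 7.45 and 6.62 with Fc-Eda. The Fc-Eda array of replicate 2 stood far above the other arrays, while those of replicates 1 and 3 lay between the control arrays. The pair differences of 0.18, 0.69 and 0.13 averaged 0.33 (1.26-fold, 95% interval -0.013 to 0.68, limma q = 0.714). Leaving out replicate 2 reduced the difference to 0.15.

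Egr1, a zinc finger transcription factor outside the AP-1 family, showed the largest mean difference of the 8 genes in the deposited values. Its log2 values were 7.06, 7.61 and 7.16 in control and 7.61, 8.26 and 7.45 with Fc-Eda. Within each pair the Fc-Eda array was higher, by 0.55, 0.65 and 0.29, yet the groups overlapped because control replicate 2 exceeded Fc-Eda replicate 3. The mean was 7.27 ± 0.29 in control and 7.77 ± 0.43 with Fc-Eda (SD, n = 3), a difference of 0.50 or 1.41-fold with a 95% interval of 0.23 to 0.76 (limma q = 0.415). The 2 other moderated tests used with limma by the study differed on it. IBMT, a moderated test with a prior variance that depends on level, gave q = 0.0774 and called no member, against 0.339% of all probe sets called higher. A Cyber-T type test, which borrows variance from probe sets of similar level, gave q = 0.0262 and called Egr1 alone among the 8, against 0.624% of all probe sets called higher. On simulated data, with an assumed distribution of variances, this test made more false calls than its threshold allows. How often it does so on these arrays was not tested. In that test Egr1 had q = 0.00992 without replicate 1 and q = 0.0188 without replicate 3, but q = 0.222 without replicate 2, where its difference was still 0.42. Without the replicate block, limma gave Egr1 q = 0.962.

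Ier3 encodes a small protein induced by growth factors, radiation and NF-κB and linked to cell survival. Its log2 values were 4.68, 4.70 and 4.72 in control and 5.01, 5.20 and 5.28 with Fc-Eda. The lowest Fc-Eda array exceeded the highest control array by 0.29, and this gap was 0.30, 0.31 and 0.30 after quantile normalization, centring and cyclic loess. The pair differences of 0.33, 0.49 and 0.56 averaged 0.46, 1.38-fold, with a 95% interval of 0.24 to 0.69 (limma q = 0.386, the lowest q of the 8 genes, where the lowest of all probe sets was 0.10). IBMT gave q = 0.215 and the Cyber-T type test q = 0.158, so Ier3 passed neither on the deposited values. After cyclic loess, added after the data were seen, the Cyber-T type test gave q = 0.038 for Ier3 and q = 0.0207 for Egr1. On the deposited values with a pair left out, that test gave Ier3 q = 0.0258 without replicate 1, q = 0.449 without replicate 2 and q = 0.515 without replicate 3. Of the 3 genes with NF-κB site letters shown above, Ier3 was thus higher in every pair, while Fos and Fosb had mean differences of 0.037 and 0.029 and, in the deposited values, pairs of both signs. Under the 3 other normalizations the pairs of Fos were all positive, between 0.019 and 0.15, and those of Fosb kept both signs. Among the genes whose windows lacked these letters, Junb and Atf3 were also higher in every pair, with mean differences of 0.39 and 0.33. Jun, which lacked them too, had pairs of both signs in the deposited values. Whether the letters bear on the response was not tested.

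**Figure D2:**
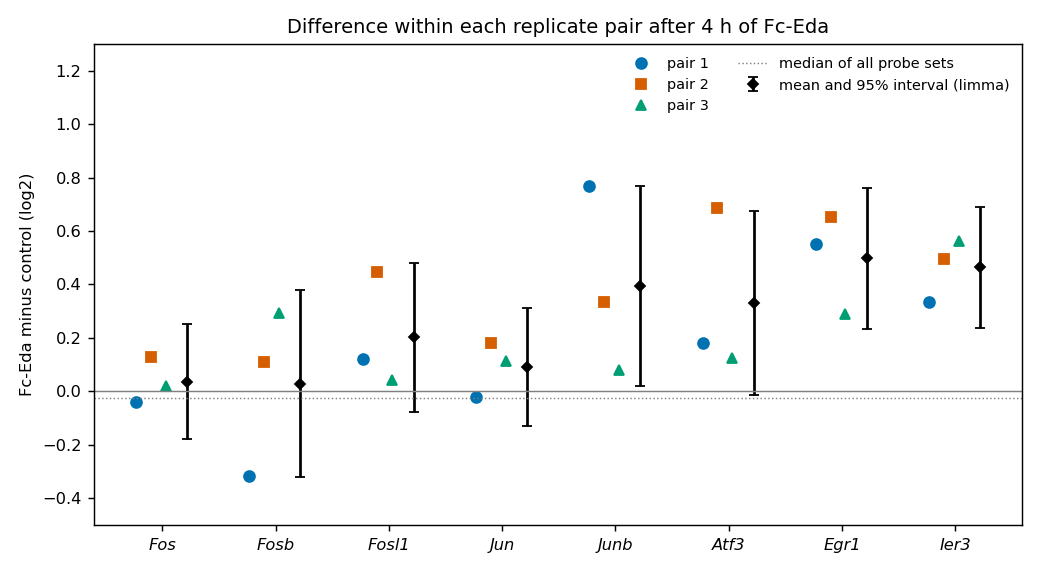
Fc-Eda minus control in log2 units for each gene, with 1 point per replicate pair, the mean and its 95% interval from limma, and the median of all probe sets as a dotted line. The 3 points of Egr1 and Ier3 lie between 0.29 and 0.65, whereas those of Junb spread from 0.081 to 0.77 and those of Fosb lie on both sides of 0.

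The SD of the 3 pair differences was 0.086 for Fos, 0.10 for Jun, 0.12 for Ier3, 0.19 for Egr1, 0.21 for Fosl1, 0.31 for Atf3, 0.31 for Fosb and 0.35 for Junb. Against all probe sets, Junb lay at percentile 86 of this SD and Fos at percentile 20.8. The median over the 8 genes was 0.20, compared with 0.16 over all probe sets, and 5 of 8 exceeded the median of probe sets of similar mean level (10 groups by level). None of the 8 exceeded percentile 90.

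Spread was also taken between the replicates of 1 condition, as the SD of single arrays. Over the 3 control arrays, the median SD of the 8 genes was 0.17 and that of all probe sets 0.15. Egr1 at 0.29 and Junb at 0.28 had the largest SDs, at percentiles 85.7 and 84.2, and 2.66 and 2.18 times the median of probe sets of similar level. Ier3 had the smallest, 0.021, at percentile 1.7. That value did not hold under other scalings, where it became 0.14 after quantile normalization, 0.12 after centring and 0.11 after cyclic loess.

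Over the 3 Fc-Eda arrays the median SD of the members was 0.29, against 0.11 for all probe sets. Atf3 (0.48, percentile 97.5), Egr1 (0.43, percentile 96.5), Junb (0.34, percentile 93.4) and Fosb (0.30, percentile 90.8) exceeded percentile 90, and this count of 4 was the same after each of the 3 other normalizations. The matching count in control was 0 in the deposited values and after cyclic loess, 1 after quantile normalization and 2 after centring. Atf3 varied 5.37 times and Egr1 4.87 times as much as the median probe set of similar level. Fos, at 0.070, was below that median. In the deposited values the SD was larger with Fc-Eda than in control for 7 of the 8 genes, all but Fos, whereas 37.7% of all probe sets had the larger SD with Fc-Eda. The exception was Ier3 after quantile normalization (0.13 against 0.14 in control) and Junb after centring (0.356 against 0.363), and cyclic loess left none. The share of all probe sets with the larger SD is given for the deposited values only. The median SD of all probe sets was 0.122 in control and 0.106 with Fc-Eda after quantile normalization and 0.12 and 0.106 after cyclic loess. It was 0.148 and 0.109 in the deposited values and 0.153 and 0.109 after centring. After centring the median SDs of the members were 0.24 in control and 0.28 with Fc-Eda, which lie closer than in the deposited values. Leaving out replicate 2 brought the members' median SD to 0.11 in control and 0.15 with Fc-Eda.

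**Figure D3:**
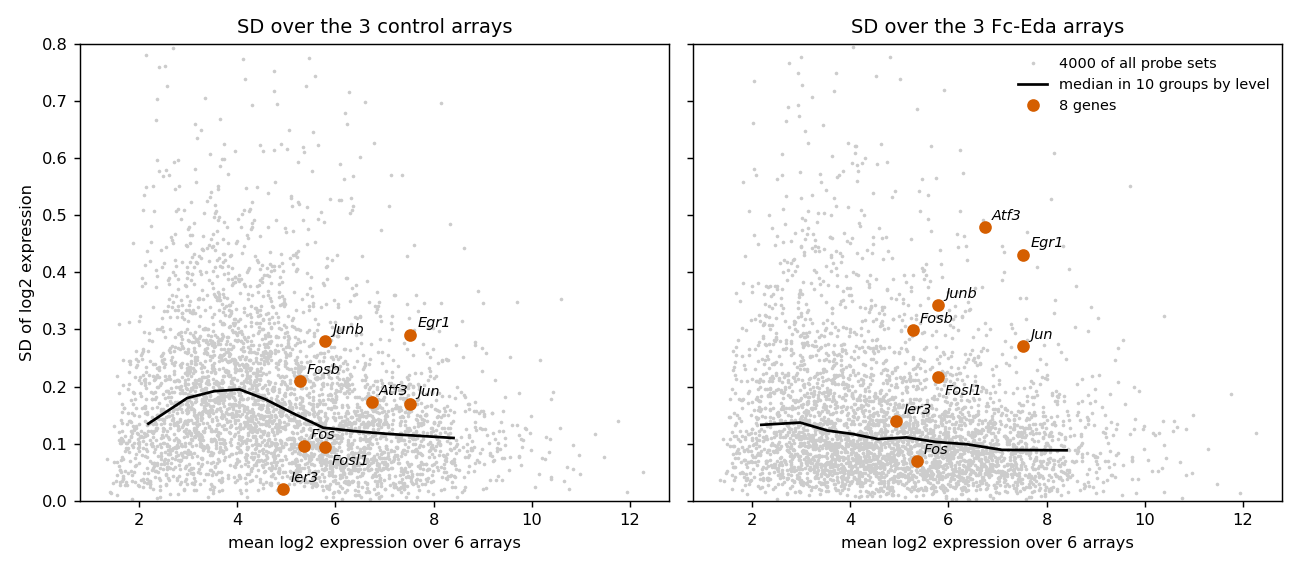
SD of log2 expression over the 3 control arrays (left) and the 3 Fc-Eda arrays (right) against the mean level over 6 arrays, with the 8 genes in colour, 4000 randomly drawn probe sets in grey (a few above the axis limit are not shown) and the median in each of 10 groups by level as a line. With Fc-Eda, Atf3, Egr1, Junb and Fosb lie above percentile 90 of all probe sets, while Fos lies under the line in both panels.

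Replicate 2 stood high for many members. It was the highest of the 3 replicates in both conditions for Fosb, Jun, Junb, Atf3 and Egr1, 5 of 8, compared with 12.7% of all probe sets, a pattern looked for after the values were seen. The count was also 5 after quantile normalization, centring and cyclic loess, against 14.4%, 16.2% and 13.6% of all probe sets. In control buds, replicate 2 exceeded the mean of replicates 1 and 3 by 0.50 for Egr1, 0.47 for Junb, 0.30 for Atf3, 0.29 for Fosb and 0.27 for Jun. With Fc-Eda the same quantity was 0.83 for Atf3, 0.73 for Egr1, 0.41 for Fosb, 0.40 for Jun, 0.37 for Junb and 0.36 for Fosl1. The median of this quantity over all probe sets was -0.049 in control and -0.0088 with Fc-Eda, so the median probe set did not share the offset. Averaged over both conditions, the offset of Egr1 (0.62), Atf3 (0.56), Junb (0.42), Fosb (0.35) and Jun (0.34) lay at or above percentile 98 of all probe sets. Fos, at 0.00047, and Ier3, at 0.031, did not share it.

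**Figure D4:**
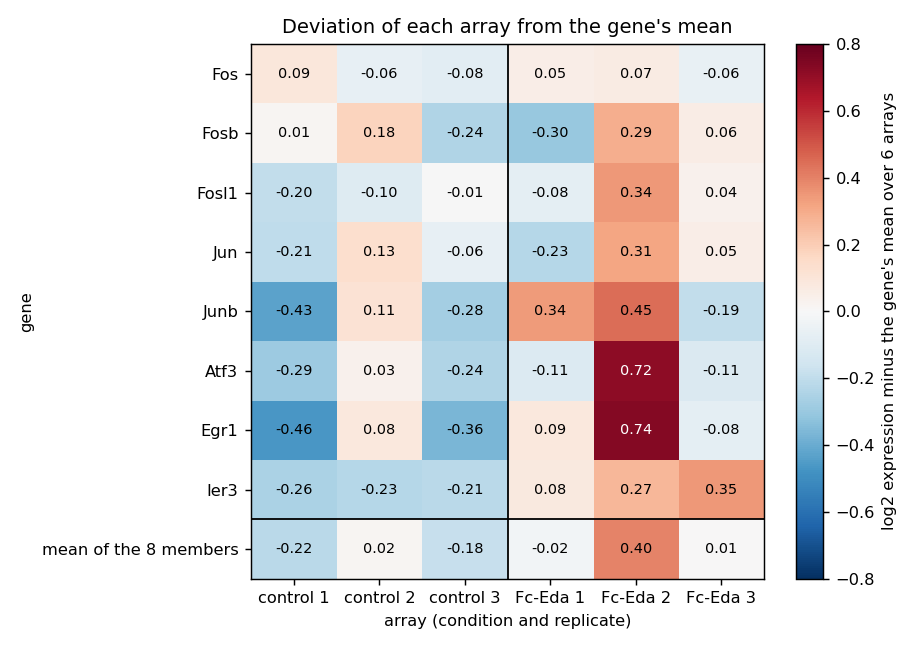
Log2 expression of each gene on each array minus that gene's mean over the 6 arrays, with the mean of the 8 genes in the bottom line. The Fc-Eda array of replicate 2 has the highest mean of the 8 genes, 0.40, and in control the array of replicate 2 is likewise the highest, at 0.018.

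The mean of the 8 centred values was -0.22, 0.018 and -0.19 on control arrays 1, 2 and 3 and -0.020, 0.40 and 0.0060 on the Fc-Eda arrays. In each pair the Fc-Eda array was higher. Control array 2 nonetheless lay as high as Fc-Eda arrays 1 and 3, so the distance between pools was of the size of the distance between conditions. Each replicate number is a separate pool of embryos dissected by hand, no record of the handling was used here, and the part of handling in the offset of replicate 2 was not tested. Control array 1 stood apart in its distribution, with a median of 4.99 where the other arrays lay between 4.80 and 4.83. Centring raised the differences in pair 1, for example of Egr1 from 0.55 to 0.74 and of Atf3 from 0.18 to 0.37. Under that scaling 7 of the 8 genes, all but Fosb, were higher in all pairs, against 17% of all probe sets, and 6 of 8 under quantile normalization (14.7%) and cyclic loess (15.1%), with Fos and, in centring, Jun joining the 5.

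The members did not share a single profile over the 6 arrays. With the mean of the 8 genes, of which each is a part, the Pearson correlation was 0.98 for Egr1, 0.97 for Atf3, 0.88 for Fosl1, 0.82 for Jun, 0.81 for Junb, 0.67 for Ier3, 0.65 for Fosb and 0.22 for Fos. Among 1430 other probe sets with a range of at least 1 log2 unit, ENSMUSG00000040552_at followed that mean most closely by Pearson's r (0.97, Spearman's rho 0.89). It read 6.39, 6.72 and 6.39 in control and 6.69, 7.44 and 6.54 with Fc-Eda, a profile that the choice for likeness to the mean largely fixes. ENSMUSG00000021822_at came next (r = 0.97, rho 0.83), with 5.66, 6.09 and 5.77 in control and 6.11, 6.80 and 5.87 with Fc-Eda. In limma these probe sets had q = 0.66 and q = 0.653. The correlations describe 6 arrays that share pools and normalization, and by rho the first ranked 11 and the second 21.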

How the data were processed

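Gene expression was measured in 6 samples, 3 control and 3 Fc-Eda, grouped and numbered by their titles. The authors deposited 1 log2 expression value per array and probe set, listed under Ensembl gene identifiers. The submitters' processing notes name RMA, and its version and settings are not given in the sources used here. Medians and interquartile ranges differ between arrays, most for control 1, so the probe set values as deposited do not have the common distribution that quantile normalization at that level would give, and every value taken from them carries this limit. No value was missing. The number of arrays limits the precision of each value.

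The 8 genes were taken by identifier, and all of them are named. They, and the lists below, were chosen with earlier results of these data known. Another 13 lists of 156 symbols (other AP-1 and immediate-early genes, stress genes, NF-κB targets, cell type markers) were set for counts, but 0 of the 25949 identifiers could be matched to a symbol in the reference table, so these lists are not analysed here. The 2 probe sets most like the mean of the members are given by identifier.

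All probe sets were fitted in R 4.3.3 with limma 3.58.1, with treatment and replicate number as terms, as in the study's methods, and the p-values were converted to Storey q-values (spline with 3 degrees of freedom, lambda 0.05 to 0.95 by 0.05, threshold 0.05). The pairs come from the division of the same embryos between conditions. Deviations from the group means correlated within pairs at 0.079, 0.29 and 0.29. IBMT (loess span 0.75) and a Cyber-T type test (window 101 probe sets, prior weight 10) were written out anew and may differ from the original programs. The tests were tested on simulated data with an assumed distribution of variances. There the Cyber-T type test made more false calls than its q threshold allows. The methods are in conflict on the t-test, since the general section gives an unpaired form for every kind of data and the array section a paired one, and the paired form was used. Spread was described as SD without a test. Alternatives covered the test, the adjustment, the normalization, a filter on level, the block and each pair left out. The Cyber-T type test after cyclic loess or with a pair left out, and all alternatives for the counts of members higher in all pairs, with replicate 2 highest or without overlap, were added after the data were seen.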

Additional observations from a re-analysis of the deposited data

How the results depend on the processing

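Numbers of probe sets called depended on the test. Against 0 higher and 0 lower in limma with the replicate block, 3 higher and 0 lower were called with no replicate block, 90 and 6 with trend and robust moderation, 88 and 6 by IBMT, 162 and 31 by the Cyber-T type test, 56 and 1 after centring of each array on its median, and 85 and 6 among probe sets with a level above the median. The methods' t-test, run in paired form without moderation, called 802 and 696 unadjusted and 0 and 1 after Benjamini-Hochberg adjustment. Benjamini-Hochberg adjustment of limma's p-values, quantile normalization, cyclic loess and leaving out probe sets under percentile 25 of level called 0 and 0. With 1 pair left out limma called 0 to 10 higher and 0 to 1 lower, and the Cyber-T type test 78 (without replicate 3), 82 (without replicate 2) and 337 (without replicate 1) higher and 8 to 175 lower. After cyclic loess that test called 186 higher and 61 lower. The cause of these shifts was not tested.

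Of the 8 genes, 0 were called in limma with or without the pairing. The Cyber-T type test called 1 (Egr1), 2 after cyclic loess (Egr1 and Ier3), and 0 to 2 with a pair left out. The same t-test without adjustment reached 2 (Egr1 and Ier3). Other tests, adjustments and level filters leave the difference itself as it is. Over the 3 other normalizations and the 3 left-out pairs it ranged from 0.42 to 0.60 for Egr1, 0.41 to 0.53 for Ier3, 0.21 to 0.55 for Junb, 0.15 to 0.43 for Atf3, 0.081 to 0.28 for Fosl1 and 0.043 to 0.15 for Jun, without a change of sign. With a pair left out, Fos ranged from -0.010 (without replicate 2) to 0.075, and Fosb from -0.11 (without replicate 3) over -0.012 (without replicate 2) to 0.20. With a pair left out, the median difference of the 8 genes ranged from 0.12 (without replicate 2) to 0.35, their median SD from 0.11 to 0.17 in control and from 0.15 to 0.34 with Fc-Eda, and the number higher in all remaining pairs from 5 to 8, against 21.1% to 28.4% of all probe sets.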
